A study of Mus musculus with 4 samples.

Results

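In mouse embryonic stem cells, broad domains of the histone mark H3K4me3 touched 40% of pluripotency genes and 53.3% of splicing factor genes. They touched 55.6% of genes listed for H3K4 methylation or demethylation. The share of all autosomal protein-coding genes was 5.64%. Nanog, Klf4, Sox2 and Pou5f1 were among the pluripotency genes touched, whereas Dppa3 and Dnmt3l had the shortest domains of that list, 436 and 398 bp. RAD21, a cohesin subunit, was called less often near the transcription starts in broad domains than in the next shorter ones, and their promoters held more CpG. Broad domains were defined as runs of autosomal H3K4me3 peaks, merged where at most 1 kb apart, that spanned about 1.76 kb or more. The rule gave 961 domains out of 19027 merged domains, or 5.05%. They held 12.2% of the bases in all merged domains, with the gaps between merged peaks included. Because length chose them, their lengths and the way they were assembled are given as description. The rule did not use their genes, the CTCF and RAD21 peaks in them or their sequence. The domains and the gene lists were nevertheless chosen with earlier results of these data known, so no list is independent support.

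The peaks came from ChIP-exo, in which an exonuclease trims immunoprecipitated DNA towards the crosslinked protein. The cells were Bruce-4, an embryonic stem cell line of C57BL/6J genotype, kept on gelatin in serum/2i/LIF, where 2i stands for inhibitors of MEK and GSK3 and LIF is the cytokine that sustains self-renewal. All 4 libraries came from this untreated line, 1 for H3K4me3, 2 for CTCF and 1 for RAD21, and the study has no second condition. A single peak list was used for each of the 3 antibodies, and that for CTCF is a union list. The lists give positions in mm10 and nothing else, so neither the depth of sequencing nor the height of a peak was known. With 1 list used per antibody, no difference below was tested against variation between cultures. Intervals are Wilson 95% intervals, which cover counting error only, and neighbouring domains or starts are not independent.

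H3K4me3 is trimethylation of a lysine on the tail of histone H3. It is written by the SET1 and MLL (KMT2) complexes, which are drawn to unmethylated CpG-rich promoters, and it is removed by KDM5 enzymes. Most active promoters carry a short stretch over the nucleosomes that flank the transcription start, with a nucleosome-poor gap at the start itself. Wider stretches have been described at genes that define cell identity and at tumour suppressor genes. CTCF binds DNA through its zinc fingers and stops cohesin, the ring complex to which RAD21 belongs.

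The cell type was checked on marker genes. All 10 stem cell markers (Pou5f1, Sox2, Nanog, Esrrb, Klf4, Zfp42, Dppa3, Tfcp2l1, Prdm14 and Tdgf1) were touched by H3K4me3, and 5 of them by a broad domain. Of 10 fibroblast markers 5 were touched, none by a broad domain, and Col1a2, Col3a1, Prrx1, Pdgfrb and Dcn had no domain. Of 10 markers of differentiated tissues 5 were touched, again none by a broad domain. Over all autosomal protein-coding genes 65.8% were touched, and 5.64% by a broad domain, so 5 of 10 touched and none broad are near the background.

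Promoter sequences show the range of DNA that these domains covered. The 250 bases before the annotated start are printed 5′ to 3′ from RefSeq (GRCm38.p6, the source of mm10), with each CpG in capitals. Foxo3, a forkhead transcription factor, had the second widest domain among those that cover a whole promoter of the table. Arid1a, a subunit of the BAF chromatin remodeller, and Sall1, a zinc finger factor, are shown for the chromatin and primed-state genes. Pou5f1 encodes OCT4, the central pluripotency factor. Gbx2, a homeobox gene that supports self-renewal, stands for pluripotency genes whose domain stayed below the threshold. Gask1b was added after its values were seen, as the promoter with the fewest CpG among those wholly inside a broad domain.
Foxo3 (chr10:42276696-42276945, minus strand, 31 CpG): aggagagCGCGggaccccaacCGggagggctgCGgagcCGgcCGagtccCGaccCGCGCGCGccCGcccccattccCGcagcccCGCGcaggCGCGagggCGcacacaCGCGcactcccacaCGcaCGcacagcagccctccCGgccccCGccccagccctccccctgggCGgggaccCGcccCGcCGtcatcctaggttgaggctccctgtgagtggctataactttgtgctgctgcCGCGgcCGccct
Arid1a (chr4:133753986-133754235, minus strand, 33 CpG): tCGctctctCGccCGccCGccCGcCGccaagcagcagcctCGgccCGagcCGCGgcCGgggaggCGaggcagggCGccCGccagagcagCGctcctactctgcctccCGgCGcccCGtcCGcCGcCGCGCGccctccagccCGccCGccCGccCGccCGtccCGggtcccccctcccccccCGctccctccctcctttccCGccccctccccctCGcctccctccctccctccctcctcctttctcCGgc
Sall1 (chr8:89042863-89043112, minus strand, 30 CpG): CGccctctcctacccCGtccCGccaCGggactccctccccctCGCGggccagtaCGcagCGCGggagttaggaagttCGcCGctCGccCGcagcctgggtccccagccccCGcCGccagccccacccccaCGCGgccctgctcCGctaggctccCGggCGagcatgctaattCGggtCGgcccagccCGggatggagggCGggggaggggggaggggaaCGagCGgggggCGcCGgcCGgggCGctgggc
Pou5f1 (chr17:35505782-35506031, plus strand, 8 CpG): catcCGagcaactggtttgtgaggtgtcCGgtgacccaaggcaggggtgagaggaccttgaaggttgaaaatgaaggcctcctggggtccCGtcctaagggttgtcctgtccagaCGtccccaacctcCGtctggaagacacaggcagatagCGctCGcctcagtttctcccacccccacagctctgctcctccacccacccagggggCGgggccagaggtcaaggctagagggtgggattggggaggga
Gbx2 (chr1:89931177-89931426, minus strand, 18 CpG): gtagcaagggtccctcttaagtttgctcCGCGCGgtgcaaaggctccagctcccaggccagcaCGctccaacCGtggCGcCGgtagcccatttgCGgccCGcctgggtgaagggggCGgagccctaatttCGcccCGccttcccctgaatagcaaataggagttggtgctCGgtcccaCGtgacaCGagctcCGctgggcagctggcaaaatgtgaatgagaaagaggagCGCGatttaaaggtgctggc
Gask1b (chr3:79885680-79885929, plus strand, 3 CpG): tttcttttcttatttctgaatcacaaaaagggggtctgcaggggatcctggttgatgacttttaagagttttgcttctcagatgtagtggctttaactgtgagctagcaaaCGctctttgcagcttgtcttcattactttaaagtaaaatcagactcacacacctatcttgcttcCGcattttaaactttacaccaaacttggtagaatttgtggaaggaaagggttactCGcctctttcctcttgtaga
The first 3 carry a CpG in nearly every short stretch, whereas the Pou5f1 and Gask1b windows hold few. The GC box letters GGGCGG, on either strand, were present in the printed bases of Foxo3, Arid1a, Sall1, Pou5f1 and Gbx2, and were not in those of Gask1b.

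A further set of sequences comes from the microRNA cluster that dominates the microRNA content of mouse embryonic stem cells. A broad domain of 2344 bp at chr7:3217808-3220151 lay over the Mir290 to Mir295 cluster, whose host transcript the annotation names D7Ertd143e; the coding gene touched there was Nlrp12. No CTCF and no RAD21 peak fell in it. Of the 9 microRNA genes of the cluster that it touched or approached within 1 kb, 6 lay inside it, and Mir293, Mir294 and Mir295 lay just beyond its end. The seed (bases 2 to 8, in capitals) decides which transcripts a microRNA pairs with, and the printed sequences are grouped by it. The first group shares AAGUGCU, as 3 of the 17 mature sequences of the cluster in the RefSeq table do, and the second shares CUCAAAC, again with 3.
miR-291a-3p (chr7:3218968-3218989): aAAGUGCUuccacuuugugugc
miR-294-3p (chr7:3220691-3220712): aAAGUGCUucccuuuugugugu
miR-295-3p (chr7:3220815-3220837): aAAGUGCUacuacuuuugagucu
miR-290a-5p (chr7:3218639-3218660): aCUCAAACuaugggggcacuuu
miR-292a-5p (chr7:3219200-3219221): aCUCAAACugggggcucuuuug
miR-293-5p (chr7:3220356-3220377): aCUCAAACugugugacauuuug
Across all broad domains, 24 had a microRNA gene within 1 kb, 33 genes in all. That is 2.5% of broad domains (1.68 to 3.69%), against 1.20% (0.949 to 1.53%) of the domains from 1 kb up to the threshold, called the next class below. A longer domain holds more annotation by its length alone, and no correction for that was made. Of the 33 genes, 9 belong to the Mir290 to Mir295 cluster.

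The broad domains were the upper tail of one continuous range of lengths, with no gap at the threshold. Their median was 1996 bp, with quartiles of 1869 and 2217 bp and a maximum of 4348 bp, against a median of 775 bp over all merged domains. At least 2000 bp was reached by 477 of them, 2500 bp by 103 and 3000 bp by 21. Shorter than the threshold by 1 bp were the domains at Zfp532, at Anp32b, a histone chaperone of the ANP32 family, and at Ptpn23, an endosomal phosphatase homologue. Exactly at the threshold lay those at Cop1, a ubiquitin ligase, at Pfn1 and Eno3, which encode profilin and an enolase, and at Foxf1, a forkhead factor of the mesoderm.

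**Figure D1:**
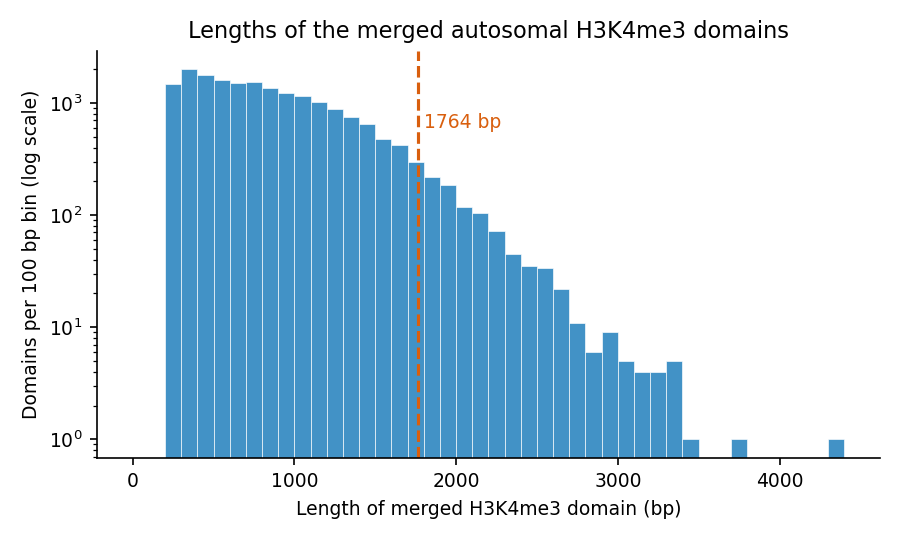
Lengths of the 19027 merged autosomal H3K4me3 domains in bins of 100 bp, with the number per bin on a log scale; the dashed line marks the threshold of about 1.76 kb. The counts decline smoothly through the threshold, and the bar farthest to the right is the single domain of 4348 bp at Brd2.

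Most broad domains were assembled from several peaks. A single peak made 298 of them, 2 peaks made 577, 3 peaks 82, and 4 or 5 peaks made 4. The called peaks covered 86.1% of the bases of broad domains, and in 545 domains the called bases alone reached the threshold. The longest single peak of the whole list, 3297 bp, lay at Slc1a5, which encodes a glutamine transporter. Each autosome had some: broad domains were 3.79% of the domains on chromosome 13, the lowest share, and 6.65% on chromosome 3, the highest (SD 0.808 over 19 autosomes). They were scattered, with a median of 435 kb to the nearest other broad domain; 42 had another within 20 kb and 305 had none within 1 Mb.

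Nearly all broad domains were at genes. They touched a protein-coding gene, in its body or within 1 kb of an end, in 928 cases, or 96.6% (95.2 to 97.5%). The background over all merged domains was 80.2%, and the share went from 60.4% of domains under 500 bp through 81.6% (500 bp to 1 kb) to 94.4% (the next class). A gene end lay within 1 kb of 836 broad domains (87.0%), 92 lay deeper inside a gene (9.57%), and 33 were away from coding genes (3.43%). A single gene was touched by 694 domains, 2 genes by 224, 3 by 9 and 4 by 1. Pairs of oppositely directed starts lay in 147 broad domains, or 15.3% (13.2 to 17.7%), against 8.45% (7.74 to 9.21%) of the next class. A longer interval holds more annotation by its length alone, and no correction for that was made here.

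The widest domain, 4348 bp in 3 peaks at chr17:34118110-34122457, covered Brd2, a BET bromodomain reader of acetylated histones, and overlapped or neighboured H2-DMa, a class II histocompatibility gene. The second, 3796 bp in 4 peaks, lay at Mxi1, a MAX partner that opposes MYC. The third, 3496 bp in 3 peaks, lay at Foxo3. Next came Nsd1, an H3K36 methyltransferase, with 3381 bp, the neighbours Rnf5 and Agpat1 with 3368 bp, Hnrnpl, a splicing regulator, with 3325 bp, and Igf2bp1, an RNA-binding protein of early development, with 3308 bp. Ubtf, the RNA polymerase I factor, followed with 3307 bp, then Slc1a5 with 3297 bp, and the neighbours Mrps18b and Ppp1r10 with 3256 bp. Of these 10 domains, 5 held a CTCF peak and 1, that at Mrps18b and Ppp1r10, held a RAD21 peak. The domain touching the most genes, 2409 bp on chromosome 17, reached Eme2, Mrps34, Nme3 and Mapk8ip3.

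The widest of the 92 domains deeper inside genes was that in Ubtf. It was followed by Hivep2, a zinc finger factor, with 2923 bp, Ptch1, the Hedgehog receptor, with 2851 bp, Arid1a with 2650 bp, and Ywhaz, a 14-3-3 protein, with 2613 bp. A gene end in this annotation is the outermost end of all its transcripts, so a promoter used by shorter transcripts counts as inside: the printed Arid1a promoter lies wholly in its domain. Among imprinted genes, the 2007 bp domain inside Kcnq1 overlapped or neighboured Kcnq1ot1, the antisense transcript of that locus.

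Of the 33 domains away from coding genes, 16 had a long noncoding RNA gene within 1 kb and 4 had transfer RNA genes, 1 domain counting in both, and 14 had neither. Malat1, an abundant nuclear RNA, had the widest, 2773 bp in 1 peak. It was followed by Lockd, the transcript downstream of Cdkn1b, with 2651 bp, by 2589 bp on chromosome 14 at Gm52088 and 3 transfer RNA genes, by 2578 bp at chr11:33534679-33537256 with no annotated gene of either kind, and by Lncenc1, a noncoding RNA of embryonic stem cells, with 2572 bp. Neat1, the scaffold of paraspeckles, had 2142 bp and Pvt1, the neighbour of Myc, had 1841 bp; these 2 were chosen after their values were seen. Long noncoding RNA genes also lay at 24.0% of all broad domains (21.4 to 26.8%), against 18.4% (17.4 to 19.4%) of the next class. These shares were not corrected for domain length either.

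Seen from the genes, 1166 of 20661 autosomal protein-coding genes were touched by a broad domain, a background of 5.64%. Any H3K4me3 domain touched 13593 genes, or 65.8%, and broad domains touched 8.58% of those. Gene lists are read against these shares as counts, since lists of genes are not replicates. Of 25 lists 18 lay above 5.64% and 4 had no member with a broad domain. Genes with a broad domain at an end spanned a median of 27.3 kb, against 22.8 kb for genes with narrower domains and 17.5 kb for all genes.

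Of the 35 pluripotency genes, 14 had a broad domain (40%, 25.6 to 56.4%), and all 35 were touched by H3K4me3. Among the core factors, Nanog had 2792 bp in 1 peak, Pou5f1 2019 bp in 1 peak and Sox2 2013 bp in 2 peaks. Of the Krüppel-like factors, which sustain the naive state, Klf4 had 2425 bp, Klf2 2002 bp and Klf5 1969 bp. Fgf4, the growth factor through which these cells signal exit from self-renewal, had 2686 bp. Mycn, which drives their growth, had 2585 bp. The remaining broad ones were Fbxo15 with 2526 bp, Tbx3 with 2268 bp, Esrrb with 2148 bp, the 5-methylcytosine oxidase Tet2 with 1950 bp, the zinc finger factor Sall4 with 1912 bp and Socs3, which restrains LIF signalling, with 1874 bp. The domain of Esrrb, an orphan nuclear receptor, was the member farthest from a gene end.

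The other 21 pluripotency genes had narrower domains, and the list was graded rather than split. Zfp42 (REX1), at 1711 bp, and Tdgf1, a Nodal co-receptor, at 1710 bp, fell just short of the threshold. The LIF receptor chains Il6st and Lifr had 1487 and 1428 bp, Prdm14 had 1461 bp, Gbx2 1438 bp, Tet1 1413 bp and Tfcp2l1 1321 bp. L1td1 had 1227 bp, Nr5a2 1198 bp, Gdf3 1176 bp, Zfp281 954 bp and Stat3, the transcription factor downstream of LIF, 873 bp. Shorter still were Dppa4 with 855 bp, Utf1 with 739 bp, Tcl1 with 720 bp, Dppa5a with 644 bp, Dppa2 with 628 bp and Lin28a with 592 bp. Dppa3 (Stella) had 436 bp and Dnmt3l, a cofactor of the de novo DNA methyltransferases, had 398 bp, the shortest. The median over the widest domain of each of the 35 genes was 1461 bp.

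At the pluripotency genes the broad domains ran mostly downstream of the start; 10 of the 14 genes are in the promoter table. The Sox2 domain began on the annotated start base and reached 2012 bp past it, and that of Klf2 began 14 bp upstream and reached 1987 bp. Those of Nanog, Mycn, Fgf4, Socs3 and Klf4 began after the start, by 17, 40, 67, 133 and 303 bp (for Nanog from the nearer of 2 annotated starts). The Esrrb domain lay 48217 bp or more past both of its annotated starts. Pou5f1 and Tet2 differed, with 370 and 638 bp upstream of the start and 1648 and 1311 bp downstream. For Pou5f1 these values are from the annotated start inside the domain. From its other annotated start the domain lay wholly upstream, by 1127 bp or more. A short upstream arm was also seen at the narrower domains of Tfcp2l1, Lin28a and Utf1, which began 2, 7 and 75 bp upstream. It was not general: the narrower domains of Tet1, Gbx2 and Il6st began 145, 402 and 689 bp upstream. That of Lifr reached 792 bp upstream and 635 bp downstream of the start inside it.

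Primed-state genes had broad domains above the background share of 5.64%, with an interval that includes the 8.58% of genes with any H3K4me3. Germ layer regulators and Hox genes lay close to 5.64%. Of 21 primed or early differentiation genes 4 had one (19%, 7.67 to 40%): Sall1 with 2800 bp, Sox11 with 2325 bp, Zic2 with 2270 bp and the de novo DNA methyltransferase Dnmt3a with 2163 bp, whereas Dnmt3b had 1286 bp and Cer1 had no domain. Of 56 germ layer regulators 3 had one (5.36%), although 49 were touched by H3K4me3, among them the endoderm factor Sox17 with 1808 bp. All 3 held both a CTCF and a RAD21 peak, as 22.0% of all broad domains did; 3 domains are too few to set apart. Cdx2, a trophectoderm factor, had 294 bp. Of 39 Hox genes 2 had one (5.13%), Hoxb2 with 1935 bp and Hoxc11 with 1794 bp. No broad domain was found at 20 fibroblast genes (0 to 16.1%) or 30 genes of terminal tissues (0 to 11.4%), and both intervals include the background.

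The list for H3K4 methylation, which also counts demethylases, had the highest share of the 25 lists at this threshold. Its interval is wide and overlaps those of several other lists. Its broad members include Kmt2e and Kdm2a, whose activities are given below, and the share was not recomputed without them. At 1500 bp this list stood at 55.6% and splicing factors at 70.0%. At 2500 bp they stood at 5.56% and 13.3%, so this list was not the highest at either. Of 18 genes for H3K4 methylation and demethylation 10 had one (55.6%, 33.7 to 75.4%), and all 18 were touched by H3K4me3. The methyltransferase genes Kmt2a, Kmt2b, Kmt2c, Kmt2d and Setd1a had 1908, 2034, 2024, 1918 and 1996 bp, Kmt2e, a relative with no established methyltransferase activity, had 3033 bp, and Wdr5, a core subunit of these complexes, had 1819 bp. The demethylase genes Kdm5a and Kdm5b had 1888 and 2066 bp, and Kdm2a, which binds CpG and demethylates H3K36, had 2178 bp. Ash2l, another core subunit, had 1362 bp and Cxxc1, the CpG-binding subunit of the SET1 complex, had 974 bp. Of 30 Polycomb genes, all touched by H3K4me3, 5 had one (16.7%, 7.34 to 33.6%). That interval lies above the background of 5.64% but includes the 8.58% of genes with any H3K4me3. The 5 included Jarid2 with 2728 bp, Aebp2 with 2544 bp and Eed with 1951 bp. Jarid2 and Aebp2 encode accessory subunits of the complex that methylates H3K27. Of 31 chromatin remodelling and DNA methylation genes 9 had one (29.0%, 16.1 to 46.6%), led by Brd2, Arid1a and Arid1b, the last with 2147 bp. Of 17 cohesin and CTCF genes 4 had one (23.5%, 9.56 to 47.3%). They were Ctcf with 2269 bp, Stag1 with 2163 bp, Pds5a with 2114 bp and the cohesin release factor Wapl with 1817 bp.

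Genes for RNA processing and protein synthesis had higher shares than the background, whereas the interval for genes of protein breakdown includes it. Of 30 splicing factor genes 16 had a broad domain (53.3%, 36.1 to 69.8%), led by Hnrnpl, Hnrnpdl with 2822 bp and Ptbp1 with 2746 bp. Several of these domains, that of Hnrnpdl among them, also held an oppositely directed start of a neighbouring gene. Hnrnpc and Hnrnpd had 1120 and 1507 bp. Of 39 translation initiation genes 9 had a broad domain (23.1%), led by Eif5b with 2303 bp. Of 73 ribosomal protein genes 17 had one (23.3%), led by Rpl15 with 2243 bp, Rpl41 with 2223 bp and Rpl3 with 2106 bp. Of 37 proteasome genes 1 had one, Psma7 with 1796 bp (2.70%, 0.479 to 13.8%). All 3 groups were touched by H3K4me3 nearly throughout: 39 of 39 translation, 73 of 73 ribosomal and 36 of 37 proteasome genes.

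Of 27 FGF-ERK genes 7 had a broad domain (25.9%), among them the feedback inhibitors Spry2 (2163 bp), Spred1 (2092 bp), Spred2 (1931 bp) and Dusp4 (1844 bp), and Etv1 (2051 bp), a transcription factor of the pathway. Of 33 WNT genes 4 had one (12.1%, with an interval of 4.82 to 27.3% that includes the background of 5.64%), led by Gsk3b (2454 bp), the kinase inhibited in 2i medium, and the receptor Fzd10 (2240 bp). Of 27 TGF-beta and BMP genes 4 had one (14.8%, 5.92 to 32.5%), led by the corepressor Skil (2453 bp) and the receptor Bmpr2 (2197 bp). Of 25 G1 genes 5 had one (20%): Ccne2 (2144 bp), Ccnd1 (1925 bp), Cdk6 (1912 bp), Cdkn1b (1903 bp) and Rb1 (1849 bp). Of 29 tumour suppressors 7 had one (24.1%), among them Smarca2 (2984 bp) and Ptch1. Of 28 immediate early genes 5 had one (17.9%), Klf6, Ier3, Jund, Jun and Ier5l, with 1988 to 2262 bp. Of the 12 genes of the MYC network 2 had one (16.7%, with an interval of 4.70 to 44.8% that includes the background). These were Mxi1 and Mnt (2120 bp), both of which antagonise MYC. Mycn, a MYC family gene with a broad domain of 2585 bp, was counted with the pluripotency genes and not in this list. Fgf4 (2686 bp) was likewise counted there and not among the FGF-ERK genes. Of 38 imprinted genes 6 (15.8%) were touched by 4 domains, with Zrsr1 sharing that of Commd1 and Peg3 that of Usp29. The intervals for TGF-beta and BMP genes, immediate early genes (7.88 to 35.6%) and imprinted genes (7.44 to 30.4%) include the 8.58% of genes with any H3K4me3.

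None of 65 replication-dependent histone genes had a broad domain (0 to 5.58%, against 5.64% of all genes), and 36 were touched by H3K4me3. Over all genes touched by H3K4me3 the share was 8.58%, and no interval was computed for these 36. The widest that the naming rule met was 1634 bp at H1f2. None of 1104 olfactory receptor genes had one, and 5 were touched by H3K4me3. Of 388 zinc finger genes with a Zfp number 23 had one (5.93%, close to the background), led by Zfp91 with 2344 bp, Zfp827 with 2340 bp and Zfp654 with 2262 bp. The histone genes lie in clusters of near-identical copies, where the mapping of reads can differ from that of single genes; its part in these counts was not tested.

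**Figure D2:**
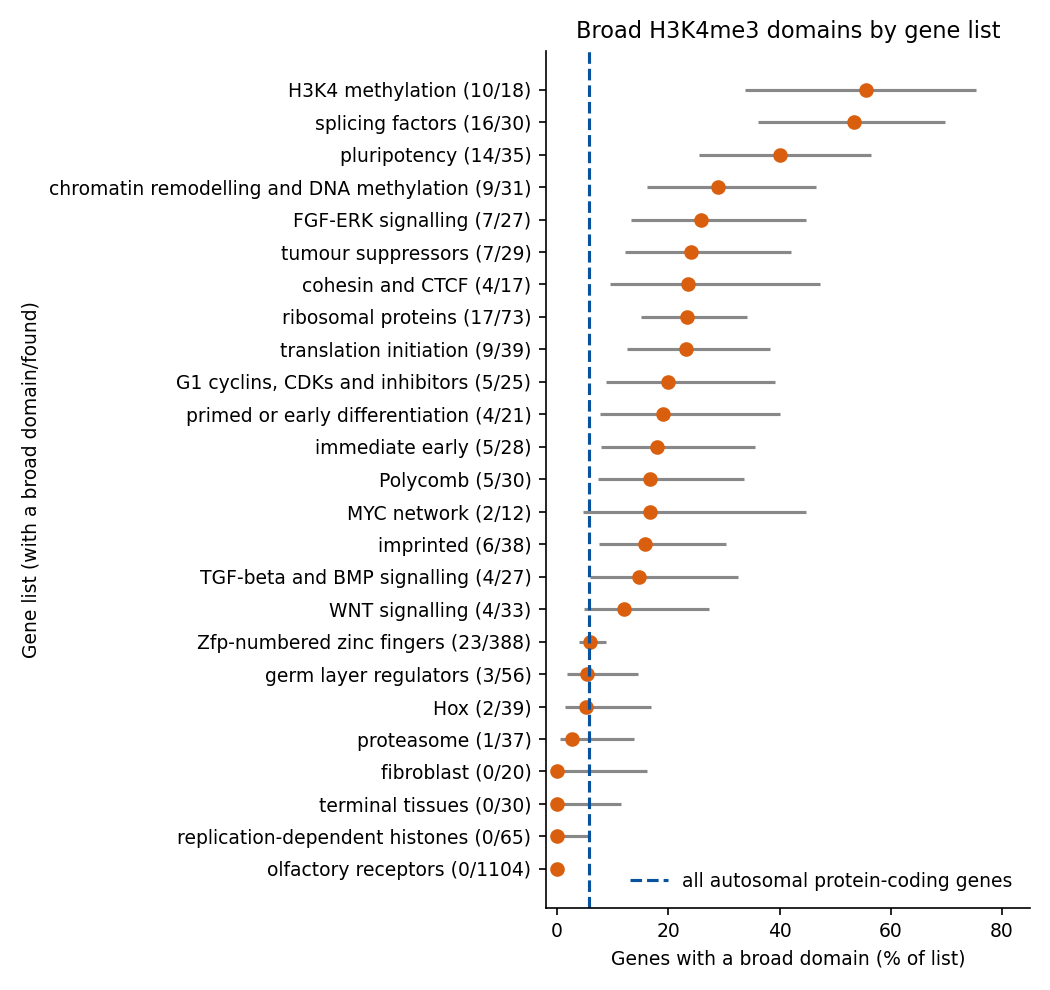
Share of the genes of 25 lists that are touched by a broad H3K4me3 domain, in percent, with the number touched and the number found in the annotation; bars are Wilson 95% intervals and the dashed line is the 5.64% of all 20661 autosomal protein-coding genes. H3K4 methylation genes (55.6%), splicing factors (53.3%) and pluripotency genes (40%) lie farthest to the right, and 4 lists lie at 0.

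Around the annotated start, broad domains were longer on both sides and less lopsided. For 459 broad domains that held a single start the median reach was 801 bp upstream and 1215 bp downstream, and 73.4% reached farther downstream (69.2 to 77.3%). In the next class the medians were 447 and 833 bp, with 80.7% longer downstream (79.2 to 82.2%). In domains of 500 bp to 1 kb they were 109 and 611 bp, with 88.1%. Since length chose the classes, the reach of both arms is a description. Extreme cases were Mxi1, which reached 3643 bp downstream and 152 bp upstream, and Arrdc3, an arrestin-domain protein, which reached 2644 bp upstream and 561 bp downstream; Arrdc3 was chosen after its values were seen. In 35 broad domains no start lay inside but one lay within 250 bp, and in 32 of these the domain was downstream of the start.

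The longest gap between the peaks of a broad domain often lay at the start, as it did in the next class. For 327 broad domains with a single start and several peaks, the longest uncalled gap had a median width of 337 bp and its midpoint lay at a median of 96 bp upstream of the start. The midpoint lay upstream in 72.2% (67.1 to 76.7%), and the gap contained the start base in 54.7%. In the next class the gap was 241 bp wide and its midpoint 63.5 bp upstream. There the midpoint lay upstream in 69.9% (66.0 to 73.6%), and the gap contained the start base in 58.7%. The gap counts towards the merged length that chose the classes, so the difference in its width is a description.

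CTCF peaks were found in 307 broad domains, or 31.9% (29.1 to 35.0%), against a background of 19.5% over all merged domains and 24.9% (23.8 to 26.1%) in the next class. RAD21 peaks were found in 423, or 44.0% (40.9 to 47.2%), against a background of 34.9% and 42.4% (41.1 to 43.7%). Both were found in 211 domains (22.0%), CTCF without RAD21 in 96, RAD21 without CTCF in 212, and neither in 442 (46.0%). A longer domain has more room, so the density was compared as well. Broad domains held 1.72 CTCF and 2.45 RAD21 peaks per 10 kb, against 2.07 and 3.75 in the next class. The RAD21 density was lower in broad domains on 19 of 19 autosomes and the CTCF density on 16.

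A window of fixed size gave the same order as the density; it reaches beyond the edges of domains under 500 bp. A RAD21 peak lay in the central 500 bp of 13.5% of broad domains (11.5 to 15.8%), against 23.7% (22.6 to 24.8%), 25.5% and 28.3% in the 3 classes of decreasing length. The share was lower in broad domains than in the next class on 19 of 19 autosomes. For CTCF the shares were 8.95% (7.30 to 10.9%) and 11% (10.2 to 11.9%), with intervals that overlap, and broad domains were lower on 14 of 19 autosomes. The centre of a domain is not always at the start, so starts were examined next.

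**Figure D3:**
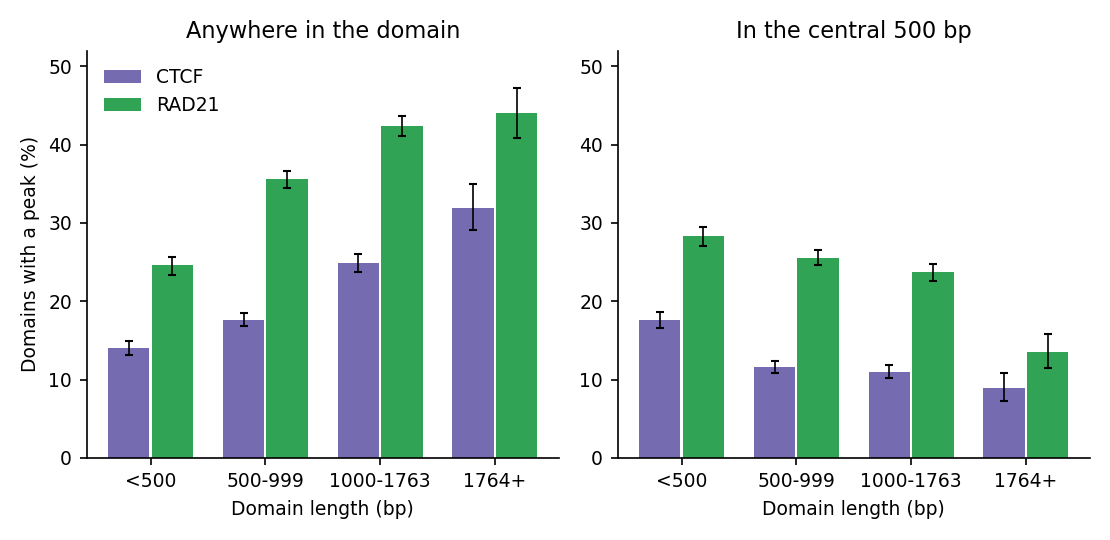
Share of H3K4me3 domains with a CTCF or RAD21 peak anywhere in the domain (left) and in its central 500 bp (right), in percent, for 4 classes of domain length; bars start at 0 and error bars are Wilson 95% intervals. For RAD21 the share anywhere is 44.0% in the broad class and 42.4% in the next, whereas in the central window it is 13.5% and 23.7%.

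At annotated starts RAD21 was called at a smaller share in broad domains than in the next class, while the intervals for CTCF overlapped. Within 250 bp of the start, a RAD21 peak lay at 230 of 987 starts in broad domains, or 23.3% (20.8 to 26.0%). The share was 35.5% (34.1 to 36.9%) at 4499 starts in the next class, 40.3% at 500 bp to 1 kb and 37.7% under 500 bp. At starts with no domain it was 11.5%. A start counted as having no domain when its own base lay outside every domain, so starts just beside a domain, such as those of Nanog, are included. Broad domains were lower than the next class on 16 of the 18 autosomes compared. A CTCF peak lay at 15.8% (13.7 to 18.2%) of starts in broad domains and 16.5% (15.5 to 17.7%) of those in the next class, and broad domains were lower on 7 of 18. Split by company, RAD21 without CTCF lay at 14.1% (12.1 to 16.4%) against 24.3% (23.1 to 25.6%), and RAD21 with CTCF at 9.22% (7.57 to 11.2%) against 11.2% (10.3 to 12.1%). The larger gap was thus in RAD21 peaks that had no CTCF peak beside them.

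The profile across the start located the difference. In the 250 bp before the start there were 4.90 RAD21 midpoints per 10 kb in broad domains and 7.99 in the next class, and in the 250 bp after it 3.32 and 4.44. Farther upstream the order turned: at 500 to 750 bp before the start the values were 2.96 and 2.05, and at 1000 to 1250 bp before it 1.99 and 0.809. The order also turned downstream, at 750 to 1000 bp past the start, with 1.26 and 0.925. For CTCF the highest value in broad domains, 3.53, was also in the 250 bp before the start. The next class also had 3.53 there, and at 1000 to 1250 bp before the start the CTCF values were 1.05 and 0.756.

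**Figure D4:**
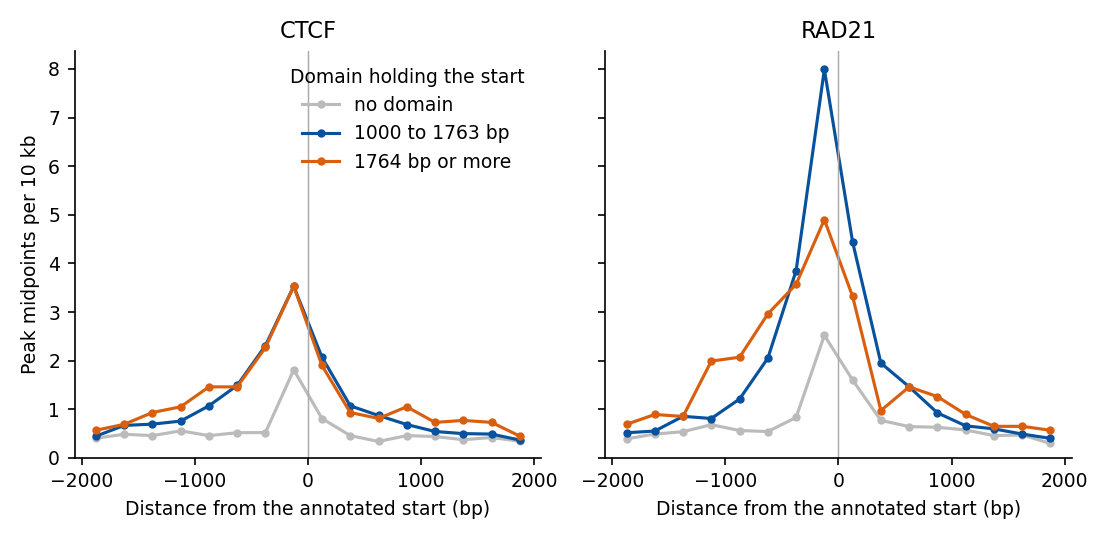
Midpoints of CTCF (left) and RAD21 (right) peaks per 10 kb, in steps of 250 bp from 2000 bp upstream (negative) to 2000 bp downstream of annotated starts, for 987 starts in broad domains, 4499 in the next class and 11378 in no domain. The CTCF curves of both domain classes lie close together, whereas RAD21 peaks at 4.90 in broad domains and at 7.99 in the next class.

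Within broad domains, both proteins were denser in the uncalled gaps than under the H3K4me3 peaks. In the 663 broad domains of several peaks there were 2.94 CTCF midpoints per 10 kb of gap and 1.33 per 10 kb of called sequence, and 3.79 and 1.95 RAD21 midpoints. The next class showed the same order, with 3.08 and 1.62 for CTCF and 5.00 and 2.78 for RAD21. Outside broad domains the density was 0.957 for CTCF and 1.16 for RAD21 in the first 1 kb beyond the edge, and both were 0.416 in the second.

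The domain with the most CTCF peaks, 4, was 2126 bp long and lay inside Ptpn3, a protein tyrosine phosphatase gene, and it held no RAD21 peak. With 3 each followed those at Mrpl40 and Hira, at Pds5a, itself a cohesin regulator, and at Med12l. The most RAD21 peaks in a broad domain were 3, at Tshz3, Igf1r, Bbip1 and Shoc2, Gpc6, and Zfp277 and Dock4; those at Igf1r, the IGF receptor, and Gpc6, a glypican, each held 1 CTCF peak and the other 3 none. Among the 14 pluripotency domains 2 held CTCF (Klf4 and Tet2) and 5 held RAD21 (Nanog, Mycn, Klf4, Tbx3 and Tet2). Among the 17 ribosomal protein domains 9 held CTCF and 7 RAD21, and among the 16 splicing factor domains 5 held CTCF and 3 RAD21. These counts are small, and over all broad domains at coding genes the shares were 32.5% and 44.9% (by the widest domain of each gene).

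Promoters in broad domains were richer in CpG. In the RefSeq windows of 300 bp, from 250 bp before to 50 bp after the start, the median was 29 CpG (quartiles 21 and 38) for 987 starts of 832 genes in broad domains. It was 25 in the next class, 19 at 500 bp to 1 kb and 15 under 500 bp. At starts whose own base lay in no domain it was 5, and these include starts just beside a domain. The mean GC content was 66.4% ± 9.28 (SD, n = 987 starts) in broad domains and 64.3% ± 8.28 (SD, n = 4499 starts) in the next class. The median CpG number was higher in broad domains than in the next class on 15 of 18 autosomes, and the mean on 17. The spread within a class was larger than the step between the top classes, as the interquartile range of 21 to 38 shows. Promoters with fewer than 10 CpG made up 2.84% of starts in broad domains and 68.9% of those with no domain.

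**Figure D5:**
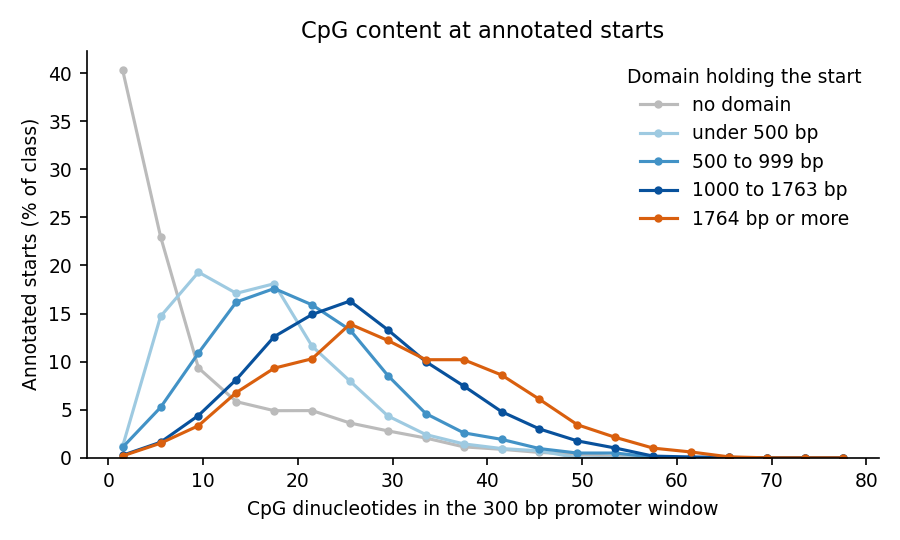
CpG dinucleotides in the 300 bp promoter window, in steps of 4, as the percentage of annotated starts in each class of H3K4me3 domain. The curve for broad domains lies farthest to the right, with a median of 29, and overlaps widely with that for the next class (1 kb up to the threshold), whose median is 25.

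The fewest CpG, 1, were at a Gdf15 start, whose window is not wholly inside the domain. Of the 28 CpG-poor starts, those with windows wholly inside include Gask1b with 3 CpG, Lamb2, a laminin chain, and Prune1 with 4 each, and Mst1 with 5. The printed Pou5f1 window is nearer to these than to Foxo3: its full promoter window has 11 CpG against 35. Both Nanog starts had 4 CpG and lay outside their domain, by 17 and 93 bp.

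Letters of known promoter elements were counted on both strands of the same windows, as a description of sequence and not of binding. The GC box GGGCGG was present in 77.5% of windows in broad domains (74.8 to 80%), 73.1% in the next class and 47.0% of all promoters of the table. The TATA core TATAAA was present in 4.36% (3.25 to 5.82%), 4.78% and 12.7%. The NRF1 palindrome, GCGCA followed at once by its reverse complement TGCGC, was present in 8 windows in broad domains, or 0.811% (0.411 to 1.59%), against 2.87% (2.42 to 3.40%) in the next class, 2.28% at 500 bp to 1 kb and 1.34% of all promoters. The CRE letters TGACGTCA were present in 2.53% (1.72 to 3.71%), against 4.22% (3.67 to 4.85%) and 2.3%, and the intervals of the top classes overlap narrowly. The E-box CACGTG (10.7%, 10.1% and 7.89%), the CCAAT box (39.2%, 35.8% and 38.1%) and the YY1 letters, AAGATGG followed at once by CGG (2.33%, 2.71% and 1.19%), had intervals that overlap between the top classes. The NRF1 letters, although they hold CpG themselves, were present in a smaller share of the CpG-rich broad promoters than of the next class. Matches may overlap each other, and all shares count windows with at least 1 match.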

How the data were processed

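The authors deposited each peak list as chromosome, start and end, so position, and through it length in bp, was the one quantity measured, with no score, count or other unit. The submitters' processing notes name, without roles, MACS2, Bowtie2 (2.4.5), bedtools (2.30.0), Picard (2.27.4) and the build mm10. Calling thresholds and controls were not given in the sources used here. For CTCF, a union list by its name was used, recorded for the second of the 2 libraries; the first was not analysed here on its own. Depth was unknown, and a missing peak shows only that none was called.

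Peaks on the 19 autosomes were merged where at most 1 kb apart, domains of 1764 bp or more were kept, and overlaps of at least 1 bp were counted with scipy 1.17.1, pandas 2.3.3 and numpy 2.4.6 under Python 3.11.15. The code was tested on simulated domains and checked against bedtools 2.31.1, and figures were drawn with matplotlib 3.10.9. Genes, promoters and microRNAs came from RefSeq tables of GRCm38.p6. The gene table has no strand or exons, so exon, intron and UTR were not assigned. The promoter table, which has strand, held 20084 promoters of 16456 of the 20661 genes and was used on 18 autosomes; 25 of 35 pluripotency genes were in it. Density counts peaks that touch a domain, and profiles count peak midpoints.

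The members and the lists were chosen with earlier results of these data known, and no list is independent support. All 695 symbols of the 22 lists written by name were found; 3 lists follow a symbol pattern, that for histones adapted to the symbols of the table. Named were all pluripotency genes, the 10 widest domains, the widest 3 and the first 2 non-broad members of each list, the 5 widest domains inside and away from genes, those with the most CTCF, RAD21 or genes, and those at the threshold; where a count was short its members were named after their values were seen. Alternatives varied the gap, the threshold, the gene window, the overlap rule and the peaks kept. Some members that this rule names are not reported here.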

Additional observations from a re-analysis of the deposited data

How the results depend on the processing

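Single lists, unknown depth and a threshold on length limit every share above. Merging with no gap left 316 domains, called bases alone 545, and thresholds of 1500, 2000 and 2500 bp gave 2074, 477 and 103; gaps of 500 bp to 3 kb and the X chromosome kept the number between 836 and 1215. The share at coding genes was 94.8% with a gap of 3 kb and 95.1% at 2500 bp. The share with CTCF was 17.4% with the longer peaks only, 8.95% in the central 500 bp, 36.3% with a gap of 3 kb, 29.0% at 1500 bp and 36.9% at 2500 bp. For RAD21 it was 21.7% with the longer peaks, 40.4% with at least 50% of the peak inside, 13.5% in the central window, 39.2% with no gap, 47.5% with a gap of 3 kb and 48.5% at 2500 bp.

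Genes with a broad domain made up 5.16% when only gene ends counted, 12% at 1500 bp and 0.595% at 2500 bp. At 2500 bp 9 of 25 lists lay above the background, with pluripotency at 11.4%, H3K4 methylation at 5.56% and splicing factors at 13.3%; at 1500 bp splicing factors stood at 70.0%. The other lists stayed within their interval in 63 of 88 alternative values. The order of RAD21 at starts held with genes of a single start (25.4% in broad domains against 36.7%) and with the longer peaks (10.8% against 20.9%); for CTCF the longer peaks gave 8.61% and 9.56%. These alternatives at starts were chosen after seeing the data. Fewer domains or peaks enter under a stricter setting; beyond that the cause was not tested. No paired analysis was possible because 1 list was used per antibody and the study has no second group.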
